A study of Ptychodera flava with 31 samples.

Results

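Compared here are the last 2 named stages of the planktonic larva of the acorn worm Ptychodera flava before it transforms: 2 Agassiz libraries against 2 Spengel libraries, 4 of the 31 RNA-seq libraries in the series, chosen by their titles. All are whole wild-type animals for which no treatment is named, sequenced from polyA-selected, strand-specific libraries, and the labels state no age for these stages. The models that differed were then followed in 1 library of transforming larvae and 1 of an adult, and in the 25 libraries from the unfertilized egg to the Krohn larva. The labels describe libraries of the same stage as biological replicates and name no parents or cultures. The p-values rest on a spread estimated over all 31 libraries in the series. They therefore reflect only how far libraries of the same stage scatter, which may be technical. The tables held 14614662 and 16854216 estimated counts in the Agassiz libraries and 15218207 and 14771552 in the Spengel libraries. Within a stage the libraries differed beyond sampling noise, with a chi-square of 18.9 per degree of freedom in Agassiz and 24.8 in Spengel.

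Acorn worms are hemichordates, marine relatives of echinoderms. Their tornaria larva swims and feeds in the plankton with ciliated bands for a long time, and then settles and is remodelled into a burrowing worm with a proboscis, a collar and a trunk. The Spengel and Agassiz larvae come at the end of the planktonic phase, and the question of the comparison is which RNAs differ between them before metamorphosis. Values are given per transcript model. The files do not pair the identifiers of the models with gene names, and 0 of 35854 occurred in the reference gene table, so that no model has a known role here and the tissue could not be checked against marker genes. RNA came from whole animals, in which fewer cells of a type and less RNA per cell cannot be told apart.

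Transcript models changed from the Spengel to the Agassiz stage in about equal numbers up and down. Of 30661 models that passed the filter on low counts, 5085 (16.6%) were called, 2496 higher in Agassiz (8.14%) and 2589 lower (8.44%). Calls needed a change of at least 2-fold and, in edgeR's quasi-likelihood test, a p under 0.05 after Benjamini-Hochberg adjustment. The changes were large: the median size of a called change was 2.26 on the log2 scale for rises and 2.43 for falls, and 833 models rose and 904 fell by at least 8-fold. The median log2 fold change over all tested models was -0.01. The Agassiz and Spengel libraries did not overlap for 2494 of the 2496 gained and 2585 of the 2589 lost models, against 63.3% of all tested models. The count depended on single libraries: it was 2937 without Agassiz replicate 2 and 3331 without Spengel replicate 2, and 1227 gained and 967 lost models were called whichever 1 of the 4 libraries was left out.

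**Figure D1:**
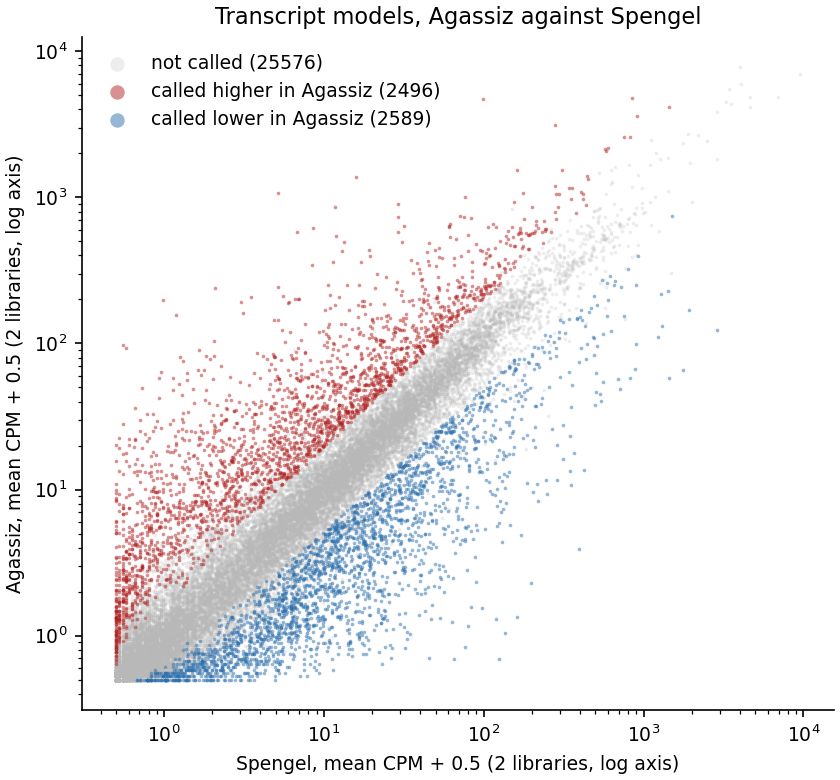
Mean CPM (counts scaled to library size with TMM factors) plus 0.5 of each of 30661 transcript models in the 2 Agassiz libraries (vertical axis) and the 2 Spengel libraries (horizontal axis), both on log axes. The 2496 models called higher in Agassiz lie above the band of models not called, and the 2589 called lower lie below it, at low and at high levels alike.

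Most changes were shifts in level, and a minority were switches between absence and presence. The median level of the gained models was 21.99 CPM in Agassiz and 4.56 CPM in Spengel, and that of the lost models 2.10 CPM in Agassiz and 11.4 CPM in Spengel. With a TPM of 1 as the limit of detection, 520 gained models were at or above it in both Agassiz libraries and below it in both Spengel libraries, and 654 lost models showed the opposite. Of the gained models, 90 had 0 counts in both Spengel libraries, and 90 of the lost models had 0 counts in both Agassiz libraries. The models were chosen by the values of these same libraries. These counts were not taken over all tested models, so that they describe the called models only. The models that changed were somewhat longer than the rest, with a median length of 2090 bases for the gained, 2095 for the lost and 1832 for all tested models.

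Among the called models eligible for naming, the largest rise was that of TCONS_00038471, a model of 1503 bases. It stood at 21.7 and 17.8 CPM in the Agassiz libraries, against 0 counts in both Spengel libraries. At most 1 count was found in any library from the egg to Spengel, and the transforming larvae had 10.2 CPM and the adult 0.183 CPM. Agassiz was thus at least 258-fold higher, with the summed Spengel counts set to 3 (edgeR adjusted p = 6.42e-05). TCONS_00007747, of 3096 bases, had 9.28 and 21.3 CPM in Agassiz and 0 counts in both Spengel libraries, at least 203-fold higher (edgeR adjusted p = 0.00031). It stayed at 10.2 CPM in transforming larvae and 5.18 CPM in the adult, whereas TCONS_00038471 was near 0 in the adult. Neither model passed the DESeq2 Wald test (adjusted p = 0.195 for TCONS_00038471 and 0.233 for TCONS_00007747; the other fits gave calls).

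The largest falls among the models eligible for naming were of 2 models that had been high in the planktonic larva. TCONS_00010386, of 2230 bases, had 0.231 and 0.162 CPM in Agassiz, against 121.9 and 126.8 CPM in Spengel, and the log2 fold change was -9.25 (SE 1.26, edgeR adjusted p = 3.45e-05). It was under 2 CPM in all embryonic libraries, reached 155.3 and 300.0 CPM at the Meschnikoff stage, and had 1 count in transforming larvae and 0 in the adult. TCONS_00025111, of 3613 bases, had 0.288 and 0.108 CPM in Agassiz and 77.0 and 52.3 CPM in Spengel, and the log2 fold change was -8.31 (SE 0.91, edgeR adjusted p = 1.00e-05). Its highest stage mean was at Krohn, and it was at 0.460 CPM in transforming larvae and 0.244 CPM in the adult. Both were thus near 0 at Agassiz and in the 2 later libraries, and the Agassiz and Spengel values did not overlap.

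The gained models had been a small and steady part of the RNA pool until this step. They held 20.6% and 22.3% of TPM in the Agassiz libraries, against 5.81% and 5.73% in the Spengel libraries, and 4.33% to 6.11% in each of the 25 libraries from egg to Krohn. In transforming larvae they held 21.8% and in the adult 11.9%. The lost models held a larger share of the pool in the larva than in the early embryo. Their share was 2.17% in the egg, 5.49 ± 0.065% in the late blastula, 12.8 ± 0.17% in the late gastrula, 14.9 ± 0.64% in the 72 hpf tornaria, 14.2 ± 2.17% at Heider, 17.7 ± 0.25% at Meschnikoff and 18.6 ± 0.093% at Krohn (SD, n = 2 each but the egg). In the Agassiz libraries they held 3.38% and 2.69% of TPM, against 14.8% and 14.6% in the Spengel libraries, with 2.32% in transforming larvae and 7.56% in the adult. These shares in Agassiz and Spengel describe the choice of the models and were not tested. As shares of estimated counts, which do not weight short models, the gained models held 24.6 ± 0.70% in Agassiz and 7.12 ± 0.17% in Spengel (SD, n = 2 each).

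**Figure D2:**
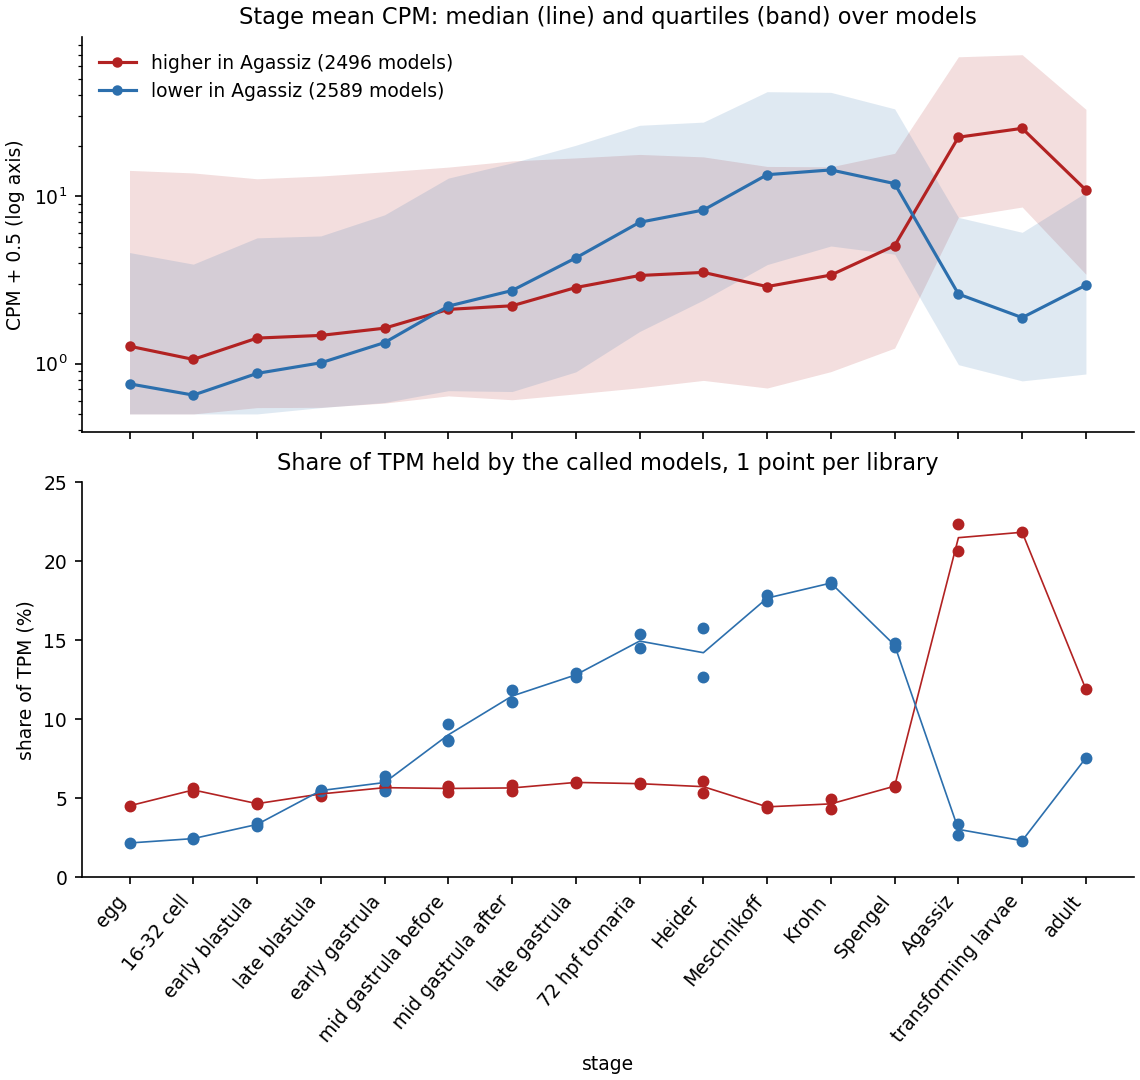
Upper panel: stage mean CPM plus 0.5 (log axis) of the models called higher (2496) and lower (2589) in Agassiz, as the median and quartiles over models at each of 16 stages. Lower panel: their share of TPM (%) in each of 31 libraries, where the higher set stays at or under 6.11% up to Krohn and the lower set reaches its highest share there.

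Few transcripts carried much of this shift. The TPM of the gained models was 15.7 percentage points of the pool higher in Agassiz than in Spengel, of which the 10 models with the largest change made up 17.1% and the top 100 made up 49.99%. For the lost models the difference was 11.7 percentage points, of which the top 10 made up 24.4%. The 10 top gained models had lengths of 300 to 4626 bases, with a median of 411.

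Of the models with the largest change in TPM, chosen after their values were seen, 2 are described for each direction by their length. The first gained model, of 300 bases, had 6299 and 7898 TPM in Agassiz and 210.4 and 195.7 TPM in Spengel, and the log2 fold change was 5.26 in CPM (SE 0.58, edgeR adjusted p = 2.71e-06). It was higher still in transforming larvae, at 9563 TPM, and at 182 TPM in the adult, below both Spengel libraries. The second, of 402 bases, had 4406 and 6275 TPM in Agassiz and 926.4 and 1111 TPM in Spengel, and the log2 fold change was 2.52 in CPM (SE 0.53, edgeR adjusted p = 0.00193). It reached 15198 TPM in transforming larvae and kept 7151 TPM in the adult. In the adult the first model was thus below its Agassiz libraries in TPM and in CPM. It was below its Spengel libraries in TPM only: in CPM it was at 14.6 in the adult against 14.1 and 11.7 in Spengel. The second was above all of its own on both scales.

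Among the lost models, the first, of 954 bases, had 337.6 and 201.5 TPM in Agassiz and 5800 and 8265 TPM in Spengel, and the log2 fold change was -4.57 in CPM (SE 0.37, edgeR adjusted p = 7.47e-08). It had been at 19679 and 12822 TPM at Krohn, and was at 23.0 TPM in transforming larvae and 11.6 TPM in the adult. The second, of 516 bases, had 4104 and 3796 TPM in Agassiz and 8690 and 8566 TPM in Spengel, and the log2 fold change was -1.003 in CPM (SE 0.22, edgeR adjusted p = 0.00291). That change lies on the 2-fold threshold and was under it in 6 of the 16 alternatives, with a log2 fold change of -0.92 without Spengel replicate 1. The call was also lost in the edgeR test against a fold of 1.5 (adjusted p = 0.0698). The model was at 3057 TPM in transforming larvae and 27528 TPM in the adult, its highest value in the 31 libraries.

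The direction of change went with the stage at which a model was highest in the rest of development. Each tested model was assigned to the stage of its highest mean CPM among the 14 stages other than Spengel and Agassiz, so that the lists do not use the libraries compared. Of 4083 models that peaked in transforming larvae, 1400 (34.3%) rose in Agassiz and 5 fell, with a median log2 fold change of 1.20. Of 5566 that peaked between Heider and Krohn, 61 rose and 1367 (24.6%) fell, with a median of -0.83. Over all tested models 8.14% rose and 8.44% fell. Of 991 models that peaked in the 72 hpf tornaria, 179 (18.1%) fell and 55 rose, and of 4051 with a peak in the gastrula 356 (8.79%) fell and 141 rose. Of 6751 models that peaked in the adult, 384 rose in Agassiz (5.69%) and 327 fell (4.84%), both shares under those of all tested models. The 5990 models with a peak in the egg or 16-32 cell embryo had 324 higher and 233 lower. In all, 56.1% of the gained models had their other peak in transforming larvae and 52.8% of the lost models between Heider and Krohn. Of all 30661 tested models, 4083 and 5566 had their peak there.

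Most gained models had been present before, as had most of all tested models. By the first stage with a mean TPM of at least 1, 977 of 2496 (39.1%) were detected in the egg, against 43.6% of all tested models. A further 307 were first detected from the 16-32 cell stage to the late blastula, 250 in the gastrula, 301 from 72 hpf to Krohn and 134 at Spengel. Agassiz itself was the first stage of detection for 469 (18.8%), against 3.05% of all tested models, a share that the choice of the models raises. More of the lost models were first detected in the gastrula and larva: 28.1% were detected in the egg, 24.2% first in the gastrula and 28.6% first between 72 hpf and Krohn. The share of lost models detected was 95.9% in Spengel, 63.0% in Agassiz, 53.5% in transforming larvae and 62.5% in the adult. Over all tested models these shares were 75.8%, 73.1%, 72.2% and 78.0%. The choice of the models favours the fall of the lost models from Spengel to Agassiz.

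The change from Spengel to Agassiz was tested against that from Meschnikoff to Krohn, which shares no library with it, in the same fit, as a difference of log2 fold changes. The 2 changes differed for 3708 models (edgeR, same thresholds), 1534 more upward and 2174 more downward from Spengel to Agassiz, or 5.0% and 7.09% of the models tested. Among the gained models 1185 differed upward and 8 downward, and among the lost 1560 downward and 0 upward. The Agassiz and Spengel libraries that chose these models are part of this difference, so that its direction within them follows from the choice and nothing is read from it. From Meschnikoff to Krohn the gained models had a median log2 fold change of 0.07 and the lost of 0.04, which does not say how far single models moved. The count of 3708 was 2035 without Agassiz replicate 2 and 2074 without Meschnikoff replicate 1.

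In transforming larvae most of the changed models stayed at their Agassiz level, and the numbers that went further or turned back were smaller. For this, each model's level in the single library of transforming larvae was set against the Agassiz mean on the scale of log2(CPM + 0.5), with a change of at least 2-fold counted. There is no replicate and no test, and the Agassiz libraries enter both steps, so that a chance deviation in Agassiz favours a count of turning back. Of the gained models, 403 (16.1%) were higher again, 1756 (70.4%) were within 2-fold and 337 (13.5%) were lower. Over all tested models 6.07% were higher and 5.74% lower by as much. Of the lost models, 492 (19.0%) were lower again, 1976 (76.3%) were within 2-fold and 121 (4.67%) were higher, against the same 5.74% lower and 6.07% higher over all tested models. With all 4 compared libraries, gained models thus moved in both directions more often than the background, and lost models in the direction of further loss. For the gained models the order of the 2 directions was not stable. With TPM in place of CPM, 354 were higher again and 405 lower, without Agassiz replicate 1 the counts were 289 and 334, and without Spengel replicate 2 they were 211 and 214. Of the models called lost with 1 library left out, 15.5% were lower again without Agassiz replicate 1 and 25.4% without Agassiz replicate 2. The share higher was 3.95% without Spengel replicate 1 and 11.2% without Agassiz replicate 1. The last of these was above the 6.83% of all tested models that were higher when measured from Agassiz replicate 2 alone. That the lost models turned back less often than the background was thus not stable either.

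A further fall could not be seen for every lost model. With 0.5 CPM added, a level in Agassiz under 0.5 CPM cannot be 2-fold lower, and 1935 of the 2589 lost models were at or above that level, of which 492 (25.4%) were lower again, against 7.34% of the 23978 tested models at that level. With the models called without 1 Agassiz library and the further change then measured from that library, which had no part in the calls, 442 gained models (20.5%) were higher again and 242 (11.2%) lower when replicate 1 was held out. When replicate 2 was held out, 260 (15.5%) were higher again and 258 (15.4%) lower. For the lost models these counts were 593 (31.3%) lower again and 48 (2.53%) higher with replicate 1 held out, and 255 (20.3%) and 89 (7.09%) with replicate 2 held out. All tested models were higher in 8.0% and lower in 6.42% of cases when measured from replicate 1, and in 6.83% and 5.63% when measured from replicate 2. The order of the shares was kept for the lost models, whereas for the gained models higher and lower were about equal from replicate 2. An edgeR test in which the spread of the single library was taken from the replicated stages called 98 gained models higher and 96 lower, and 157 lost models lower and 27 higher, against 0.998% higher and 1.37% lower over all tested models.

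**Figure D3:**
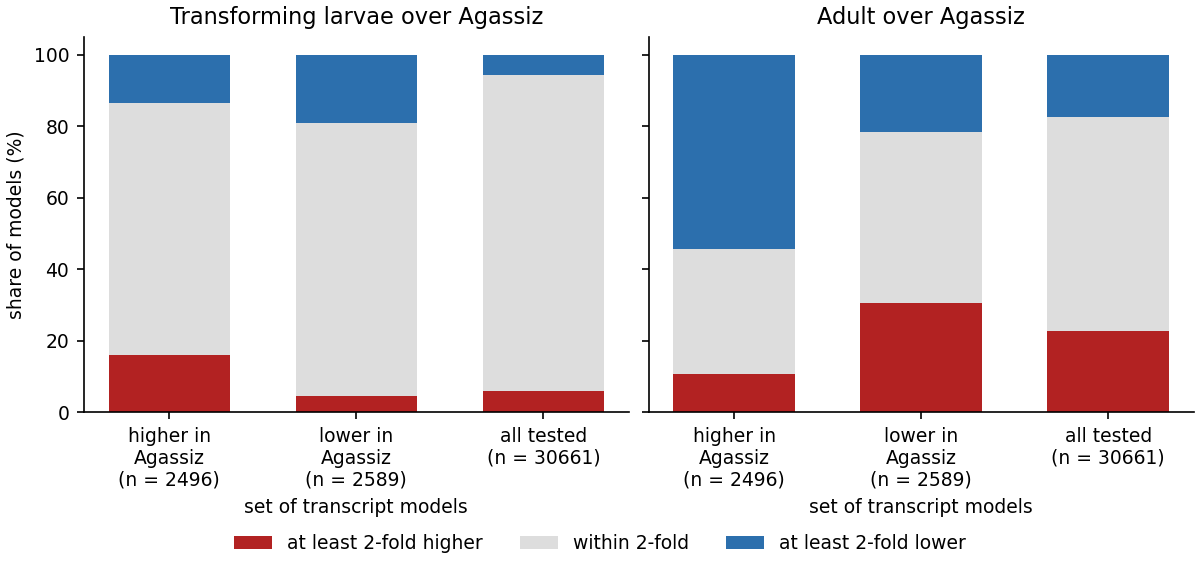
Share of models (%) at least 2-fold higher, within 2-fold and at least 2-fold lower in transforming larvae than in Agassiz (left) and in the adult than in Agassiz (right), for the 2496 gained, the 2589 lost and all 30661 tested models. In the left panel 70.4% of the gained and 76.3% of the lost models are within 2-fold, and in the right panel 54.2% of the gained models are lower.

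The gained models that were higher again in transforming larvae had been low before Agassiz. The median level of the 403 was 0.399 CPM at Krohn, 0.659 at Spengel, 7.51 at Agassiz, 33.1 in transforming larvae and 7.87 in the adult, and 138 of them (34.2%) had been detected at any stage from the egg to the late gastrula. Among the 1756 that stayed within 2-fold, 1175 (66.9%) had been detected there, and their median was 25.5 CPM in transforming larvae and 26.1 CPM at Agassiz. The 337 that turned back had a median of 12.7 CPM in transforming larvae and 36.9 CPM at Agassiz. The 492 lost models that were lower again had medians of 44.4 CPM at Krohn and 31.8 at Spengel. Their medians were 5.07 at Agassiz, 1.04 in transforming larvae and 0.793 in the adult. A model under 0.5 CPM at Agassiz could not enter this class, so that its choice favours higher levels. The 1976 lost models within 2-fold had a median of 1.43 CPM at Agassiz and 8.42 CPM at Spengel.

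Among the gained models eligible for naming, TCONS_00002441, of 1679 bases, showed the largest further rise in transforming larvae. It had 1.10 and 32.3 CPM in Agassiz and 0.668 and 0.101 CPM in Spengel, and the log2 fold change was 5.42 (SE 1.15, edgeR adjusted p = 0.00335). The 2 Agassiz libraries differed widely, and the call rests on replicate 2: without it the log2 fold change was 1.497 (edgeR adjusted p = 0.286). In the other alternatives the edgeR, DESeq2 or limma adjusted p was at most 0.0840, and it was above 0.05 with only the 4 libraries compared (0.0623), with the replicate number as a block in that fit (0.0840) and without Spengel replicate 2 (0.0504). Transforming larvae had 1503 CPM, 90.1 times the Agassiz mean, and the adult 743.8 CPM. TCONS_00011209, of 4323 bases, was the gained model with the largest turn back among those eligible for naming. It had 259.2 and 245.6 CPM in Agassiz and 21.2 and 5.75 CPM in Spengel (log2 fold change 4.23, SE 0.50, edgeR adjusted p = 5.94e-06), and then 10.1 CPM in transforming larvae and 3.96 CPM in the adult. It was at most 5.31 CPM in every embryonic library, and its highest values in the 31 libraries were those of the 2 Agassiz libraries.

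Among the lost models eligible for naming, TCONS_00017281, of 8231 bases, went down furthest from Agassiz to transforming larvae. It had 62.0 and 18.3 CPM in Agassiz and 686.2 and 390.3 CPM in Spengel (log2 fold change -3.75, SE 0.52, edgeR adjusted p = 3.15e-05), then 0.863 CPM in transforming larvae and 0.244 CPM in the adult. TCONS_00049426, of 2515 bases, showed the largest turn back among the lost models eligible for naming. It had 2.19 and 3.40 CPM in Agassiz and 26.6 and 20.2 CPM in Spengel (log2 fold change -3.06, SE 0.77, edgeR adjusted p = 0.00787), and 37.2 CPM in transforming larvae, above both Spengel libraries, with 4.51 CPM in the adult. The call of this model was lost without either Agassiz library (adjusted p = 0.0804 without replicate 1 and 0.0505 without replicate 2; in the other alternatives it was kept).

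**Figure D4:**
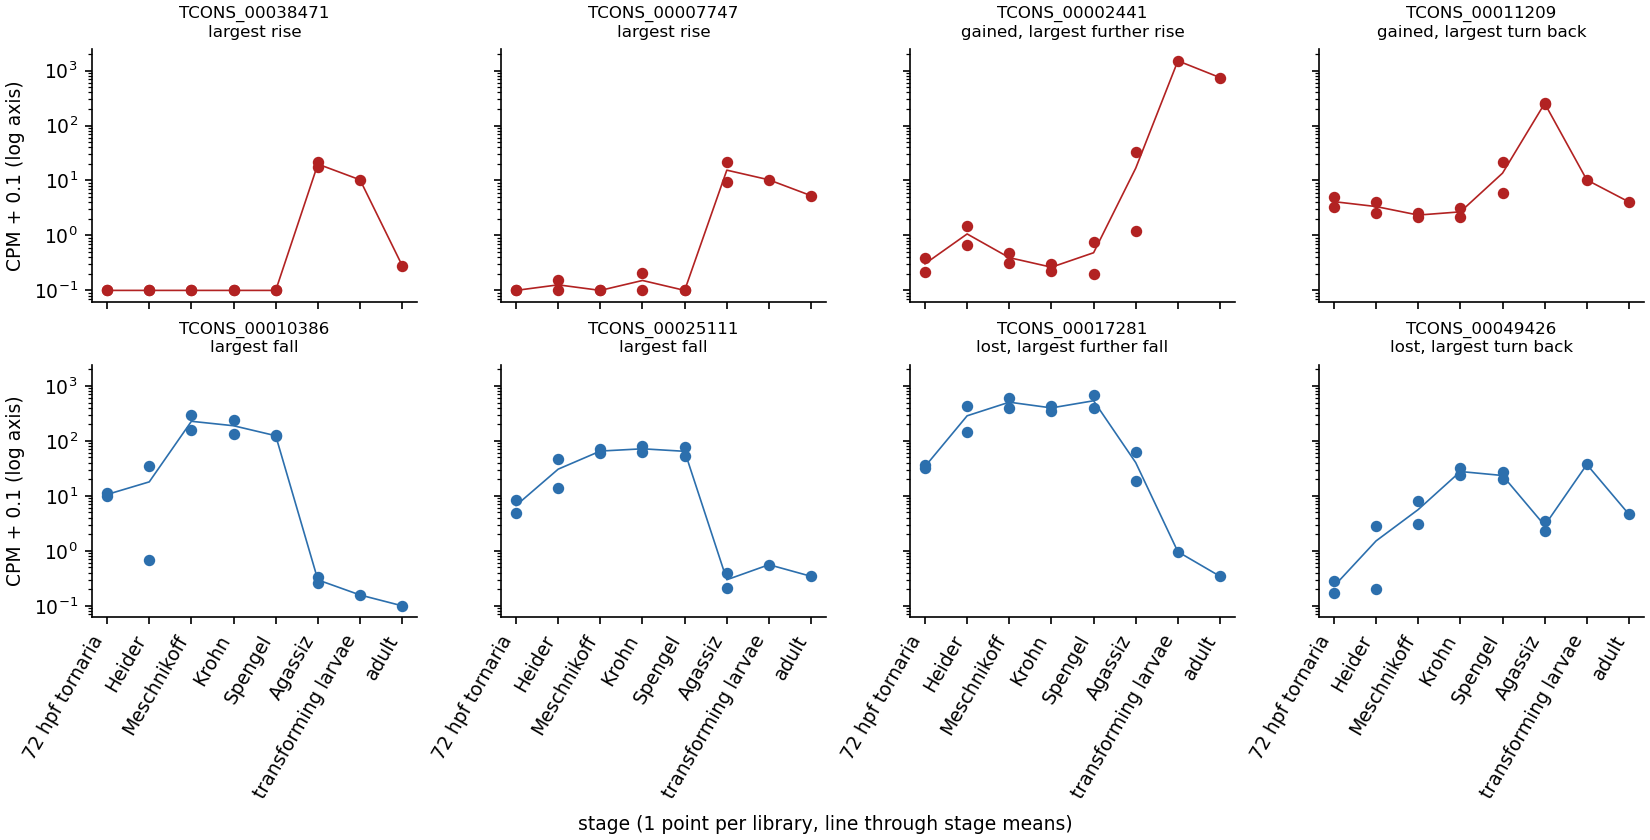
CPM plus 0.1 (log axis) of 8 named models in every library from the 72 hpf tornaria to the adult, 1 point per library, with a line through the stage means. The upper row shows models called higher in Agassiz and the lower row models called lower, and TCONS_00002441 shows the spread between its Agassiz libraries (1.10 and 32.3 CPM).

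The adult kept the losses more often than the gains. On the log2(CPM + 0.5) scale the adult was at least 2-fold below Agassiz for 1354 of the 2496 gained models (54.2%), within 2-fold for 874 (35.0%) and above it for 268 (10.7%). Over all tested models 17.4% were lower and 22.7% higher in the adult than in Agassiz. Of the lost models 560 (21.6%) were lower in the adult than in Agassiz, 1235 (47.7%) were within 2-fold and 794 (30.7%) were higher. Against Spengel, the adult was at least 2-fold higher for 1077 gained models (43.1%) and at least 2-fold lower for 1587 lost models (61.3%), against 22.7% higher and 16.8% lower over all tested models. The adult level lay nearer to the Agassiz than to the Spengel level, on the log scale, for 1085 gained (43.5%) and 1703 lost models (65.8%). In transforming larvae this was so for 2077 (83.2%) and 2356 (91.0%). These shares were not taken over all tested models. A lost model near 0 at Agassiz also falls on the Agassiz side at any low later level. With 1 of the 4 libraries left out in turn, 7.21% to 9.28% of the models called gained were higher in the adult than in Agassiz. Of the models then called lost, 24.7% were higher in the adult without Spengel replicate 1 and 26.0% without Agassiz replicate 2. The share lower was 19.3% without Agassiz replicate 1 and 27.15% without Agassiz replicate 2. The adult is 1 library, so that these shares describe it and were not tested.

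Followed through both later libraries, few models moved 1 way at every step. Of the gained models, 27 were at least 2-fold higher again in transforming larvae and then at least 2-fold higher in the adult than in transforming larvae (1.08%, against 1.01% of all tested models). The largest class, 879 models (35.2%), kept the Agassiz level in transforming larvae and was lower in the adult, against 13.4% of all tested models. A further 774 (31.01%) stayed within 2-fold at both steps, and 271 (10.9%) were higher again in transforming larvae and lower in the adult, against 56.0% and 2.76% of all tested models. Of the lost models, 111 were lower again at both steps (4.29%, against 1.65%), 1134 (43.8%) stayed within 2-fold at both, and 665 (25.7%) kept the Agassiz level in transforming larvae and were higher in the adult, against 18.8% of all tested models. The adult was at least 2-fold lower than transforming larvae for 1296 (51.9%) of the gained and 318 (12.3%) of the lost models, against 17.8% of all tested models. It was at least 2-fold higher for 163 (6.53%) of the gained and 820 (31.7%) of the lost models, against 21.1% of all tested models.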

How the data were processed

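The files deposited by the authors hold, per library, expected counts (estimated counts, not whole where models share reads) and TPM, scaled by the authors for effective length, beside model lengths. Per the submitters' processing notes kallisto and edgeR were used, while for versions, genome build and model source the entry is: not given in the sources used here. Reads of near-identical models are split by estimate, so that their levels are uncertain.

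The rounded counts were tested with edgeR 4.0.16 under R 4.3.3: filterByExpr by stage, TMM scaling (factors 0.604 to 1.34), and a quasi-likelihood fit with the trended dispersion and 1 coefficient per stage to all 31 libraries (15 residual degrees of freedom). SEs are the log2 fold change divided by the root of F. Alternatives used DESeq2 1.42.0 and limma 3.58.1, with limma on log2(TPM + 1). Descriptive steps used Python 3.11.15 and pandas 2.3.3. On simulated data the fit missed most changes of 2-fold, which lie on the threshold of the calls, and made somewhat more false calls than the nominal rate. Far fewer models changed in the simulated data than were called here, so that these rates do not carry over to the real data. A model not called is not shown to be unchanged. Total counts of 13621556 to 16854216 in the 6 libraries from Spengel to adult limit low models most.

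The comparison and the lists were chosen with earlier results of these data known. Models were named by rule: the 2 largest rises and falls among called models with at least 10 CPM on the higher side and no overlap, and the largest further change and turn back in transforming larvae of each direction, among models that met the same conditions. Alternatives changed the scaling, filter, tool, libraries fitted, thresholds, prior count and replicate number in the model. The share of TPM and the position between stages had no test. No set tests were run, because no model has a gene name.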

Additional observations from a re-analysis of the deposited data

How the results depend on the processing

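With 1 of the 4 libraries left out in turn, 2937 to 4053 models were called, 1512 to 2157 higher and 1256 to 1896 lower in Agassiz, and at least 4-fold 3105 (1447 higher and 1658 lower) in place of 5085. DESeq2 called 4832, limma on TPM 5773, the edgeR default quasi-likelihood fit 6959 and the fit to only the 4 libraries 6141. The replicate numbers are shared labels only. The correlation of the replicate deviations of Agassiz and Spengel was 0.16 over 30661 models, and the replicate number as a block gave 6382 calls with 4 libraries and 5515 with 31. The change against Meschnikoff to Krohn differed for 2035 to 3275 models with 1 library left out and for 4152 with the block. TCONS_00010386, TCONS_00025111, TCONS_00011209 and TCONS_00017281 kept their call in all alternatives run for them. The calls lost for the other named models are given beside their values, and no named model changed direction.

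At a fold of 1.5, 685 gained models (27.4%) were higher again in transforming larvae and 687 (27.5%) lower, against 16.2% and 12.5% of all tested models. At a fold of 4, 127 (5.09%) were higher again and 53 (2.12%) lower, against 1.11% and 1.39% of all tested models. Of the lost models, 782 (30.2%) were lower again and 359 (13.9%) higher at a fold of 1.5. At a fold of 4 these were 159 (6.14%) and 23 (0.89%), with the same shares of all tested models beside them. In the adult a fold of 4 left 114 gained models higher and 635 lower than in Agassiz, and 392 lost models higher and 298 lower. A prior of 2 CPM gave 272 lost models lower again and 60 higher in transforming larvae and 363 lower in the adult, and a prior of 0.1 CPM gave 236 higher in transforming larvae. With 1 library left out, gained models higher again were 211 to 306 and lower 214 to 334, and lost models lower again were 294 to 401 and higher 72 to 213. In the adult these ranges were 109 to 166 gained models higher and 925 to 1283 lower, and 326 to 686 lost models higher and 341 to 474 lower. With the calls and the further change from different Agassiz libraries, replicate 2 held out gave 260 gained and 255 lost models moving further in transforming larvae, and in the adult 141 gained models higher, 320 lost higher and 324 lost lower. Replicate 1 held out gave 48 lost models higher in transforming larvae and 470 higher in the adult. The edgeR test with the pooled spread gave 98 and 96 gained models higher and lower, and 157 and 27 lost models lower and higher. With peaks taken by TPM, 105 models with a peak from Heider to Krohn rose, 83 with a peak in the blastula rose and 81 fell, and 142 with a peak in the egg or 16-32 cell embryo fell. With at least 5 CPM at the peak, 3 models with a peak in transforming larvae fell. The lists can also differ in size under these rules, so that these counts carry no share. By estimated counts the gained models held 24.6% in Agassiz and 7.12% in Spengel. The cause of these differences was not tested.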

Other observations

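The 2 Agassiz libraries stood at different distances from the transforming larvae, as did the 2 Spengel libraries, a comparison chosen after the values were seen. Over 1835 models at least 4-fold higher in transforming larvae than at Krohn, with at least 5 CPM in one of them, each library was placed on a scale with Krohn at 0 and transforming larvae at 1 (median over models of log2(CPM + 0.5)). Agassiz replicate 2 was at 0.826 and replicate 1 at 0.755, against 0.133 for Spengel replicate 2 and 0.224 for Spengel replicate 1. Over 1729 models at least 4-fold lower in transforming larvae than at Krohn, Agassiz replicate 2 was at 0.823 and replicate 1 at 0.691, against 0.119 for Spengel replicate 2 and 0.143 for Spengel replicate 1. The adult was at 0.635 for the first set and 0.970 for the second. Among the lost models 320 were at least 2-fold lower in Agassiz replicate 2 than in replicate 1 and 28 at least 2-fold higher, and over all tested models 866 were lower and 592 higher. Between the Spengel libraries, 200 lost models were lower in replicate 2 and 90 higher by as much. Over all tested models these Spengel counts were 971 and 327. Whether the libraries were of different age was not tested.

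Across models, Pearson's r on log2(TPM + 1) was 0.950 and 0.957 between the Agassiz libraries and the transforming larvae, and 0.889 to 0.915 between Agassiz and Spengel libraries. Spengel and Krohn libraries had r of 0.961 to 0.970. These values are across models, which do not count as independent, and were not tested.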
